A study of Mus musculus with 8 samples.

Results

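The H3K4me2 islands of cultured mesenchymal stem and progenitor cells, derived from the bone marrow of mice, were compared between Asxl1-/- cells and wild-type cells. An island is a stretch of the genome that the peak caller marked as enriched in a chromatin immunoprecipitation library. All islands of both H3K4me2 lists on the 19 autosomes were taken, which gave 32800 islands in Asxl1-/- cells and 35291 in wild-type cells, or 68091 of the 158177 islands in the 7 lists of the study. The Asxl1-/- list covered 126.5 Mb of the autosomes and the wild-type list 136.6 Mb. An island was called shared when it overlapped an island of the other genotype by at least 1 bp. A wild-type island without such an overlap is called lost, an Asxl1-/- island without one is called gained, and a shared island is called kept. An island over 5 kb from either end of every protein-coding gene is called distal, and all others are called near. Distal islands were 17344 (52.9%) of the Asxl1-/- list and 19814 (56.1%) of the wild-type list.

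The cells of both genotypes were of the C57BL/6 background, at passages 5 to 10 in MesenCult medium, per the labels. The knockout is given as Asxl1-/- with no further detail of the deleted part, and neither the sex nor the age of the mice is stated. The same study mapped H3K4me3 and H3K27me3 in both genotypes and the ASXL1 protein in wild-type cells, and these lists are used below as context. Each target was sequenced in 1 library per genotype, so differences between genotypes lack a replicate check and no test between them was made. Intervals are 95% exact Clopper-Pearson intervals over islands, and they cover counting error only. The files give positions with no read count, so depth is unknown, and an island missing from a list may differ little in signal from one just called.

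H3K4me2, histone H3 with dimethylated lysine 4, lies at promoters and at enhancers, whereas the trimethylated form H3K4me3 is concentrated at active and poised gene starts. Away from genes, H3K4me2 without H3K4me3 is a usual mark of enhancers, the elements that set the cell-type-specific output of genes at a distance. ASXL1 is a Polycomb-group protein that binds and activates the deubiquitinase BAP1, and in bone marrow it is known best for mutations in myeloid disease.

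No genome sequence was used here, so the sequences shown are those of annotated RefSeq starts and miRNAs (GRCm38.p6, the same coordinates as mm10) that lay in gained or lost distal islands. These are the starts inside the widest gained island and the widest lost island, and a CpG-rich start of each kind. Each start runs from 250 bases before to 50 bases after the annotated start, 5′ to 3′ on the gene's strand, with CpG dinucleotides in capitals.
Fat1, gained, chr8:44949958-44950257, plus strand: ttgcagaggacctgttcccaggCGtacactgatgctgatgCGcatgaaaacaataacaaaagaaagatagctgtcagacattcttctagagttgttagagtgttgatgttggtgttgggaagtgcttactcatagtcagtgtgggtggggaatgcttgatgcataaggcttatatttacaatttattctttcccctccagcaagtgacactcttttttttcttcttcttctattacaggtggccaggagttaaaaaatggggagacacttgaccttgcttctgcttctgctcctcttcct
Igf2, gained, chr7:142658755-142659054, minus strand: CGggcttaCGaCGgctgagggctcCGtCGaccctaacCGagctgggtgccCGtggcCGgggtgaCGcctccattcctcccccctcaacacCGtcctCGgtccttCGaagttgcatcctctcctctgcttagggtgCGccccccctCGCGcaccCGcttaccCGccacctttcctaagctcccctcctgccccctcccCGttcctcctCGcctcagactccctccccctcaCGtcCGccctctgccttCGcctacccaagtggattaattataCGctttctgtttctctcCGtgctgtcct
Mad1l1, lost, chr5:140174869-140175168, minus strand: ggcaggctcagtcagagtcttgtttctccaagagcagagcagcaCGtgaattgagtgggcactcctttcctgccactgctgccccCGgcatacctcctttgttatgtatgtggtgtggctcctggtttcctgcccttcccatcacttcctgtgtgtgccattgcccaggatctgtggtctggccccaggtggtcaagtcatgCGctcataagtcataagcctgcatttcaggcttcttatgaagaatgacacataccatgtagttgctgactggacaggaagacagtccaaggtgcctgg
Pax6, lost, chr2:105682213-105682512, plus strand: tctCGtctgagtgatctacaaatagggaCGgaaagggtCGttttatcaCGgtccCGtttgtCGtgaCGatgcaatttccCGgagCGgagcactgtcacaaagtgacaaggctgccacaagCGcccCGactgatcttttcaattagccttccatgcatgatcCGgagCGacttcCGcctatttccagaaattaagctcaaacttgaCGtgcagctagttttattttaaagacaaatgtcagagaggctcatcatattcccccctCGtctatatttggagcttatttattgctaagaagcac
The Fat1 start had 2 CpG dinucleotides and the Mad1l1 start 3, against 24 at the Igf2 start and 16 at the Pax6 start.

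Hairpins of 12 annotated miRNAs overlapped gained distal islands and 13 overlapped lost ones, of the 70 hairpins in distal Asxl1-/- islands and the 75 in distal wild-type islands. Over all distal islands 31.5% were gained and 41.1% were lost, so neither count is above its background. The mature forms of 7 of them are shown because their families are widely studied. This choice was made after their islands were known. The seed, bases 2 to 8, is in capitals.
miR-26a-5p, gained: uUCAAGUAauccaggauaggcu
miR-137-3p, gained: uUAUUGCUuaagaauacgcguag
miR-196a-5p, gained: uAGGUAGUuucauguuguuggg
miR-378c, gained: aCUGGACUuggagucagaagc
miR-30a-5p, lost: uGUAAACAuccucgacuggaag
miR-135b-3p, lost: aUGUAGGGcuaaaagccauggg
miR-136-5p, lost: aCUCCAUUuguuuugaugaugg
Mature sequences were read for 23 of these hairpins, and their 38 mature miRNAs had 38 different seeds. Mir196a-1, at chr11:96265164-96265265 in the Hoxb cluster, overlapped its gained island with 37 of 102 bases, at the edge of an island of 15.8 kb. Mir30a lay whole in a lost island of 4 kb that also had H3K4me3 in wild-type cells, the only one of the lost islands of those 23 hairpins to have it.

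Distal H3K4me2 differed between the genotypes far more often than H3K4me2 near gene ends. Of the distal Asxl1-/- islands, 5456 (31.5%, 30.8 to 32.2) were gained, and of the distal wild-type islands 8144 (41.1%, 40.4 to 41.8) were lost. Near gene ends, 1617 of 15456 Asxl1-/- islands (10.5%) were gained and 1543 of 15477 wild-type islands (9.97%) were lost. Over all autosomal islands the shares were 21.6% gained and 27.4% lost. Losses thus outnumbered gains away from gene ends, while near gene ends both shares were about 1 island in 10. The order of gained and lost near gene ends was the opposite on the 11 autosomes described as near-median below, with 9.35% gained and 10.8% lost.

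The share of unshared islands grew with distance from gene ends in both lists. Islands lying over a gene end were gained in 4.74% of cases and lost in 3.32%. Between 5 and 10 kb from a gene end 27.8% of Asxl1-/- islands were gained and 35.9% of wild-type islands were lost. Beyond 100 kb, where islands lie in gene deserts or deep in very long genes, 36.3% were gained and 52.8% were lost. The limit of 5 kb fell on a gradual slope: just outside it, at 5 to 6 kb, 28.0% were gained and 37.3% lost, and just inside, at 4 to 5 kb, 26.7% and 34.1%. Within gene bodies 30.8% of distal islands were gained and 38.9% were lost, and outside gene bodies 32.3% were gained and 43.8% were lost.

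**Figure D1:**
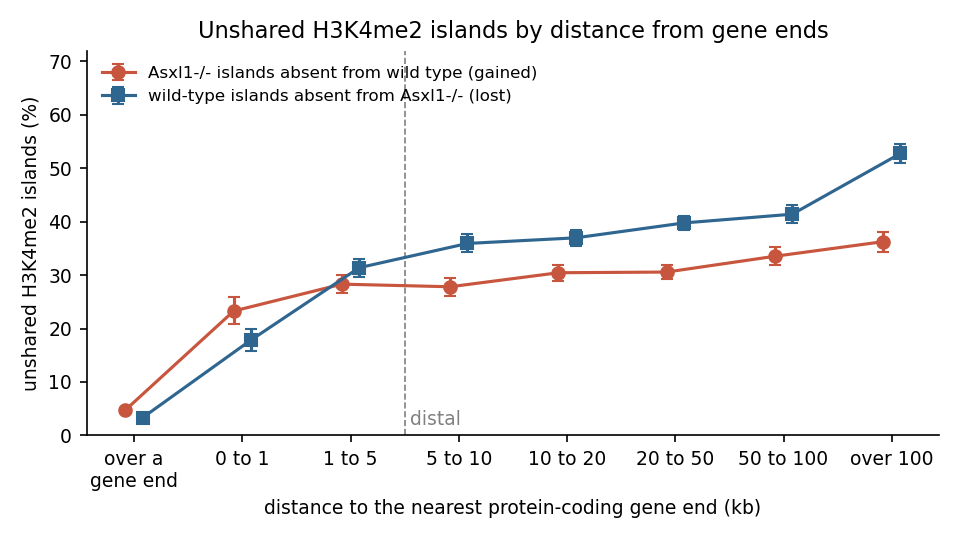
Share of unshared H3K4me2 islands (y axis, percent) by distance to the nearest protein-coding gene end (x axis, kb). Circles are Asxl1-/- islands gained and squares wild-type islands lost, with 95% intervals for counting error; the lost share climbs to 52.8% beyond 100 kb and the gained share to 36.3%.

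Distal islands were also narrower, and narrow islands were unshared more often. The median width of gained and of lost distal islands was 1800 bp in each case, against 2600 bp for kept distal Asxl1-/- islands and 2800 bp for kept distal wild-type islands. Gained shares of distal Asxl1-/- islands ran from 53.5% at 200 to 800 bp down to 7.00% above 5 kb. For distal wild-type islands the lost share was 64.3% at 200 to 800 bp, 52.9% at 1400 to 2000 bp, 23.5% at 3200 to 5000 bp and 8.26% above 5 kb.

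Distal islands were unshared more often than near ones at like width too. At 1400 to 2000 bp, 52.9% of distal wild-type islands were lost, against 28.4% of near ones. Above 5 kb the lost shares were 8.26% of distal and 0.691% of near islands. With near islands weighted to the widths of distal ones, 20.6% were gained and 19.7% were lost, still under the distal shares of 31.5% and 41.1%. Weighting to widths and chromosomes together gave near shares of 21.6% gained and 20.6% lost. Among islands of 1400 to 2000 bp, the lost share was 15.0% over a gene end and 63.8% beyond 100 kb, and the gained share was 22.9% and 44.4% at the same places.

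Whole chromosomes stood apart, and this touches each share above. The covered length of H3K4me2 in Asxl1-/- cells divided by that in wild-type cells was 0.532 on chromosome 3 and 0.616 on chromosome 13, and 1.24 on chromosome 14 and 1.35 on chromosome 10. H3K4me3 had ratios of 0.700 on chromosome 3 and 1.45 on chromosome 10, and H3K27me3 had 0.222 and 2.09, so the same chromosomes were low or high in all 3 marks. On chromosome 3, 12.4% of distal Asxl1-/- islands were gained and 65.6% of distal wild-type islands were lost, whereas on chromosome 10 the shares were 49.7% gained and 27.4% lost. The part of these chromosome-wide differences in the shares was not tested.

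The ordering of distal over near islands held within every chromosome. Distal islands exceeded near ones in the gained share and in the lost share on 19 of 19 autosomes. The lost distal share exceeded the gained one on 13 of 19, the other 6 being chromosomes 9, 10, 11, 12, 14 and 18. On the 11 autosomes whose H3K4me3 length ratio lay within 0.2 (log2) of the autosomal median, here called near-median, 28.1% of distal Asxl1-/- islands were gained and 41.8% of distal wild-type islands were lost. These autosomes were near the median in H3K4me3 alone. Their H3K4me2 length ratios ran from 0.782 on chromosome 4 to 1.12 on chromosome 18, and those of H3K27me3 from 0.619 to 1.98 on the same chromosomes. Chromosome-wide differences are thus not removed in this set. Chromosome 4, a near-median autosome, was itself divided: up to 120 Mb 18.05% were gained and 60.8% lost, and beyond it 31.1% were gained and 28.0% lost.

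**Figure D2:**
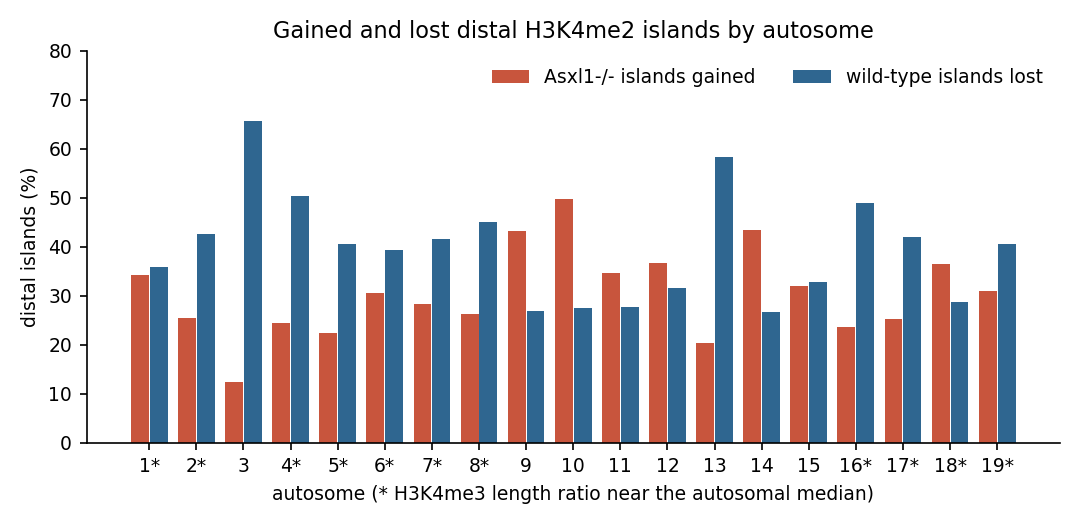
Share of distal H3K4me2 islands (y axis, percent) gained in Asxl1-/- cells (left bar of each pair) and lost from wild-type cells (right bar) on each autosome (x axis). Chromosomes 3 and 13 have the highest lost shares, 65.6% and 58.3%, and chromosome 10 the highest gained share, 49.7%; a star marks the 11 near-median autosomes.

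Wild-type ASXL1 lay at fewer of the lost distal islands than of the kept ones, but most of that gap went with width. An ASXL1 island overlapped 28.3% (27.4 to 29.3) of lost distal islands and 47.8% (46.9 to 48.8) of kept ones. With kept islands weighted to the widths of lost ones their share was 32.3%, and with widths and chromosomes it was 33.9%. At 1400 to 2000 bp the shares were 23.7% in lost and 24.6% in kept islands, and at 1000 to 1200 bp they were 18.3% and 20.0%. In wider islands they were further apart, with 48.5% in lost and 61.5% in kept islands of 3200 to 5000 bp, and 67.6% and 83.9% above 5 kb. Lost shares were below kept ones on 19 of 19 autosomes when width was left aside.

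H3K4me3 divided lost from kept distal islands at every width. A wild-type H3K4me3 island overlapped 7.70% (7.13 to 8.30) of lost distal islands and 35.0% (34.1 to 35.8) of kept ones. At 1400 to 2000 bp the shares were 5.74% in lost and 20.1% in kept islands, and above 5 kb they were 29.2% and 63.9%. Kept islands weighted to the widths of lost ones had 24.5%, and weighted to widths and chromosomes 26.6%. The lost share was the lower on 19 of 19 autosomes, and on the near-median autosomes the values were 7.02% in lost and 36.5% in kept islands. H3K27me3, the mark of Polycomb repression, overlapped 6.69% of lost and 9.65% of kept distal islands in wild-type cells.

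**Figure D3:**
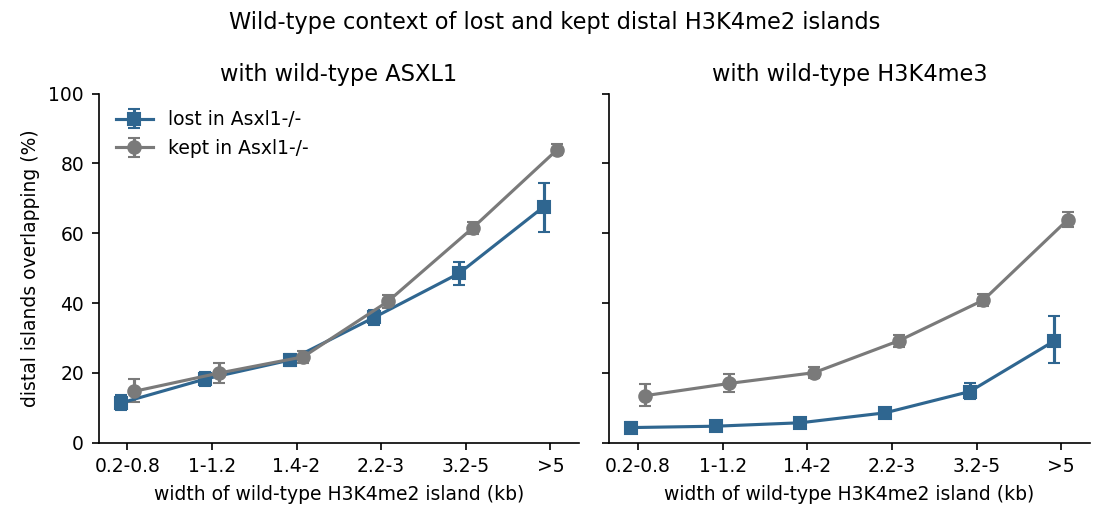
Share of distal wild-type H3K4me2 islands (y axis, percent) that overlap a wild-type ASXL1 island (left panel) or H3K4me3 island (right panel), by island width (x axis, kb), for lost islands (squares) and kept islands (circles), with 95% intervals for counting error. ASXL1 shares are within a few points of each other up to 2 kb (23.7% lost, 24.6% kept at 1.4 to 2 kb), while H3K4me3 shares are apart in each class (5.74% lost, 20.1% kept there).

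Taken in 4 classes, distal wild-type islands with H3K4me3 were lost least. Loss met 300 of 3081 islands with both ASXL1 and H3K4me3 (9.74%) and 327 of 1627 with H3K4me3 alone (20.1%). With ASXL1 alone 2008 of 4811 were lost (41.7%), and with neither 5509 of 10295 were lost (53.5%). The class with neither held most of the lost islands. At like width the classes without H3K4me3 were closer. At 1400 to 2000 bp 55.5% were lost with ASXL1 alone and 57.4% with neither, and at 2200 to 3000 bp 47.6% and 48.2%. At 3200 to 5000 bp they were further apart, with 28.3% and 32.9%. The classes with H3K4me3 stayed lower, with 29.7% and 16.8% lost at those widths where ASXL1 was present too and 22.3% and 18.03% where it was not. On the near-median autosomes the 4 shares were 8.95%, 18.7%, 41.7% and 55.8% in the order given first.

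**Figure D4:**
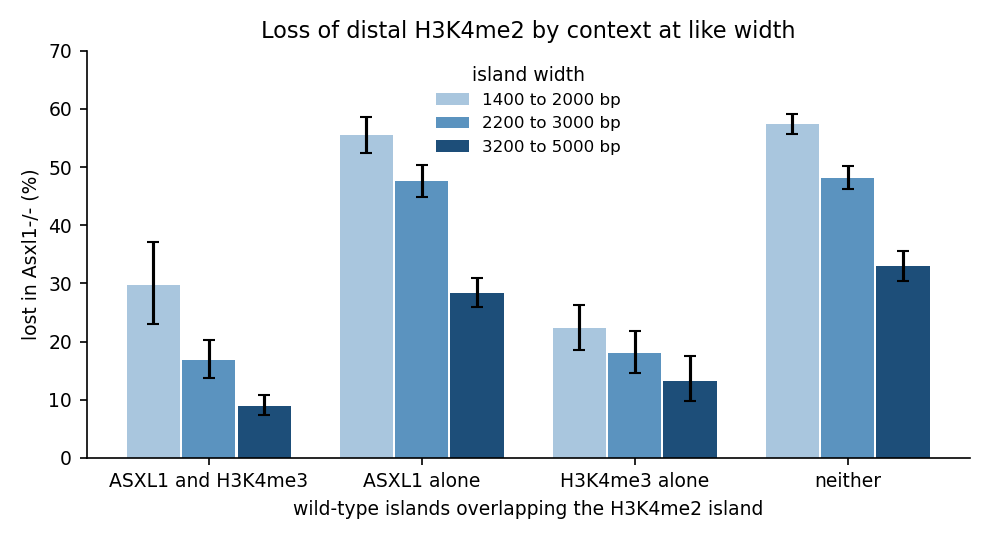
Share of distal wild-type H3K4me2 islands lost in Asxl1-/- cells (y axis, percent) by the wild-type islands they overlap (x axis) and by width (shade), with 95% intervals for counting error. Bars for ASXL1 alone and for neither are of like height at 1400 to 2000 bp (55.5% and 57.4%), and both groups with H3K4me3 are lower (29.7% and 22.3%).

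Lost islands have no Asxl1-/- H3K4me2 call by definition, and H3K4me3 calls of Asxl1-/- cells in them are few with that choice. Of the 627 lost islands with wild-type H3K4me3, 12 (1.91%, 0.993 to 3.32) had an H3K4me3 island in Asxl1-/- cells, against 2395 of 4081 kept ones (58.7%, 57.2 to 60.2). The mirror case was alike, since 0.422% of gained distal islands had H3K4me3 in wild-type cells. H3K27me3 appeared in Asxl1-/- cells at 309 of 7599 lost islands that lacked it in wild type (4.07%) and at 308 of 10544 kept ones (2.92%).

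Gained islands have no wild-type H3K4me2 island by definition and kept ones have one, so wild-type context between them is a description that follows in part from the choice. ASXL1 overlapped 5.87% (5.26 to 6.52) of gained distal islands and 49.2% of kept distal Asxl1-/- islands. Weighted to the widths of gained islands the kept share was 41.3%, and to widths and chromosomes 37.6%. ASXL1 and H3K4me2 were mapped in the same genotype for lost islands and in different genotypes for gained ones, so 5.87% of gained and 28.3% of lost islands cannot be set against each other as a genotype effect. H3K4me3 of Asxl1-/- cells overlapped 226 gained distal islands (4.14%) and 23.8% of kept ones, and 16 of those 226 had H3K4me3 in wild-type cells as well. H3K27me3 of wild-type cells overlapped 11.8% of gained and 9.40% of kept distal islands.

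Few unshared islands were near misses of the overlap rule. The nearest island of the other genotype was within 1 kb for 9.13% of gained and 6.20% of lost distal islands, and over 10 kb away for 51.9% and 60.4%. The median gap was 10.9 kb for gained and 14.8 kb for lost islands. Kept islands overlapped widely, with a median of 93.8% of the length of distal Asxl1-/- islands and 88.2% of distal wild-type islands covered in the other genotype.

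The width of kept distal islands changed in both directions. Of 9924 distal islands paired 1 to 1, 1663 (16.8%) were at least 1.5-fold wider in Asxl1-/- cells and 2239 (22.6%) were at least 1.5-fold narrower. Over all 21465 autosomal pairs the shares were 12.8% wider and 17.8% narrower. The median width in the distal pairs was 2600 bp in Asxl1-/- cells and 2800 bp in wild-type cells, and the median of the width ratio was 1 with quartiles of 0.706 and 1.28. Near pairs, 11541 in number, had a median ratio of 0.962 with quartiles of 0.787 and 1.15. Distal width ratios were thus more spread around a like centre, but distal pairs were also narrower. The wild-type median was 2800 bp in distal pairs and 4400 bp in near pairs. In distal pairs of geometric mean width above 5 kb the quartiles were 0.812 and 1.12 with wild-type ASXL1, and 0.909 and 1.36 without. The part of width in this spread was not tested. The distal median was 0.933 on the near-median autosomes, and it ran from 0.67 on chromosome 3 to 1.17 on chromosome 9.

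**Figure D5:**
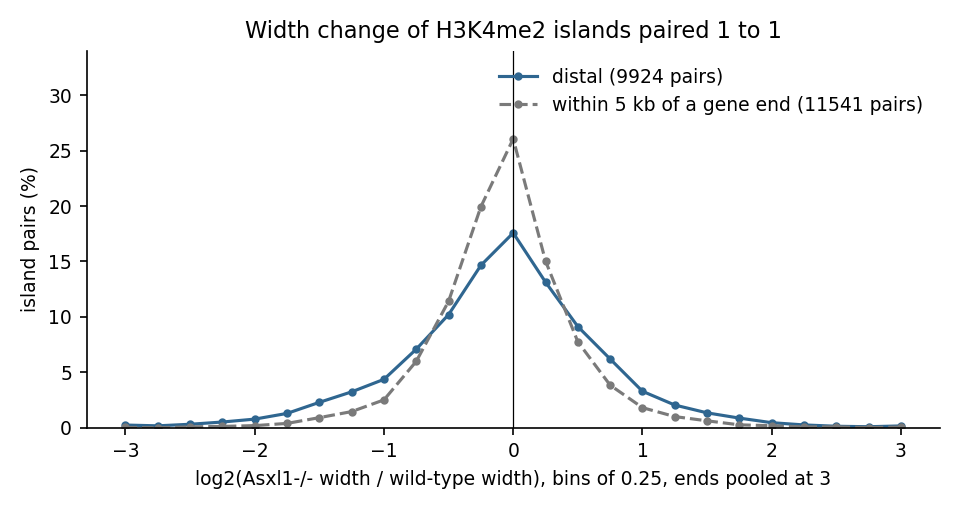
Log2 of the width in Asxl1-/- cells over the width in wild-type cells (x axis) for H3K4me2 islands paired 1 to 1, as the percent of pairs in each bin (y axis), for 9924 distal pairs (solid line) and 11541 near pairs (dashed line). The distal curve is lower at the centre and wider at both sides, and 22.6% of distal pairs are at least 1.5-fold narrower.

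Distal pairs with wild-type ASXL1 were narrower in Asxl1-/- cells more often than pairs without it. The median width ratio was 0.899 over 4460 pairs with ASXL1 and 1 over 5464 pairs without it. At least 1.5-fold widening was seen in 8.39% of pairs with ASXL1 and 23.6% without, and narrowing of that size in 26.5% with and 19.4% without. In pairs of geometric mean width over 1200 and up to 2000 bp the medians were 0.8 with and 1 without ASXL1. In those over 3000 and up to 5000 bp they were 0.905 and 1.1. On the near-median autosomes they were 0.888 and 1. Wild-type H3K4me3 gave a like pattern, with a median ratio of 0.920 with it and 1 without, and 24.7% of pairs narrowed and 9.88% widened where it was present. With Asxl1-/- H3K4me3 the median was 1, against 0.933 without it. The width of the wild-type island enters both the ratio and the overlap with wild-type ASXL1, and its part beyond these width classes was not tested.

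In length, unshared islands made up 21.9% of the 50.1 Mb that distal H3K4me2 covered in Asxl1-/- cells and 28.7% of the 57.8 Mb in wild-type cells. A further 13.4% and 15.2% lay in kept islands outside the other genotype's span. Both genotypes covered the remaining 64.6% of the Asxl1-/- length and 56.1% of the wild-type length. Near gene ends unshared islands held 4.48% of 76.4 Mb in Asxl1-/- cells and 4.13% of 78.8 Mb in wild-type cells.

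The 10 widest gained islands were 9.6 to 17.8 kb wide, and 8 of them lay in gene bodies. In Fat1, which codes for an atypical cadherin, a gained island of 17.8 kb at chr8:44945801-44963600 lay 12.7 kb inside the gene. Fat1 gained 3 of 6 distal Asxl1-/- islands in all and lost 7 of 11 distal wild-type islands. Col18a1, a basement membrane collagen, held one of 16 kb at chr10:77107001-77123000, with H3K4me3 in Asxl1-/- cells. The island of 15.8 kb next to Hoxb9, a homeobox gene, had H3K27me3 in both genotypes and H3K4me3 in Asxl1-/- cells. Col4a1, which codes for a chain of basement membrane collagen IV, followed with 12.8 kb. Of the 10 widest, Pmepa1, a negative regulator of TGF-beta signalling, was alone in having wild-type ASXL1, over an island of 12 kb. The other 5 were at Nectin1 (11 kb), Vav2, Bicc1 and Tfam (10.2 kb each) and Iqsec1 (9.6 kb).

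The widest lost islands mostly had ASXL1, as did 67.6% of all lost distal islands above 5 kb. Mad1l1, which codes for a spindle checkpoint protein, lost an island of 14.2 kb at chr5:140165601-140179800, inside the gene and 142 kb from its nearest end, with ASXL1 and H3K4me3. An island of 13.2 kb outside Tspan11, a tetraspanin gene, had both as well and carried H3K27me3 in Asxl1-/- cells. ASXL1 lay over 7 of the 10 widest, at Mad1l1, Tspan11, Aknad1, Ankrd55, Arhgap42, Tmprss15 and Zfand3, and H3K4me3 over the first 6 of these and over Tcf20. At Sulf2, a heparan sulfate sulfatase gene, and in Foxp1, a forkhead transcription factor gene, lost islands of 10.2 kb had neither. Among lost islands with ASXL1 alone, those of Zfand3 (10.2 kb), Tgfbr3 (9.2 kb), the TGF-beta co-receptor betaglycan, Rcan1 (9 kb), a calcineurin inhibitor, and Eif4e (8.4 kb), the cap-binding translation factor, were the widest. With H3K4me3 alone the widest were in Tcf20 (10.4 kb), Dip2b (8.6 kb), Oplah (8.2 kb) and Gatb (7.6 kb). With neither, Hivep3, a zinc finger gene of bone formation, lost 9.4 kb and Copg1, a coatomer gene, 8.8 kb, after Sulf2 and Foxp1.

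Some kept islands shrank to a remnant or grew out of one. Next to Btn2a2, a butyrophilin gene, the island had 0.4 kb in Asxl1-/- cells and 11 kb in wild-type cells. In Lrp6, a Wnt co-receptor gene, it had 0.8 kb in Asxl1-/- cells and 12.8 kb in wild-type cells, and another Lrp6 island of 5.8 kb was lost. All 6 most narrowed islands, with those at Nfatc2, Bckdhb, Rnf144a and Arsb, had wild-type ASXL1. All 6 were above 5 kb in wild-type cells, and 83.9% of all kept distal wild-type islands of that width had it. In the other direction an Eif4g3 island had 5.8 kb in Asxl1-/- cells and 0.4 kb in wild-type cells. Dlgap1 had 5.0 kb in Asxl1-/- cells and 0.4 kb in wild-type cells, and an island outside Zmiz1 had 7.4 kb in Asxl1-/- cells and 0.6 kb in wild-type cells. Of the 6 most widened, with those at Csgalnact1, Copz2 and Gng7, the ones in Eif4g3 and Dlgap1 had wild-type ASXL1. These 6 were 0.4 to 0.8 kb in wild-type cells, and 14.7% of all kept distal wild-type islands of 200 to 800 bp had ASXL1. The ratio chose these pairs and with it their wild-type widths, so their sizes and their ASXL1 counts are a description.

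The genes with most changed islands are given by count. Distal islands assigned to a gene lie in its body or have it as the nearest gene. At Zmiz1, a transcriptional co-regulator gene on chromosome 14, 20 of 35 distal Asxl1-/- islands were gained and 2 of 19 distal wild-type islands were lost. Reep3 gained 14 of 20, Tle3, a Groucho co-repressor gene, 13 of 23, Utrn, which codes for utrophin, 13 of 23, and Rad51b 12 of 39, a share close to the background of 31.5%. Mgat5, a gene of N-glycan branching on near-median chromosome 1, gained 11 of 12 and had 1 wild-type island. Reep3 and Utrn lie on chromosome 10 and Tle3 on chromosome 9, where gains were frequent throughout.

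Among losses, Pde4d, a cyclic AMP phosphodiesterase gene on chromosome 13, had 24 of 37 distal wild-type islands lost and 3 of 17 distal Asxl1-/- islands gained. Adgrl2, an adhesion receptor gene on chromosome 3, lost 23 of 25. Atxn1 lost 21 of 27, Mbnl1, a splicing factor gene, 16 of 21, and Zswim6 16 of 25, on chromosomes 13, 3 and 13. Losses were frequent throughout these chromosomes, with 65.6% of all distal wild-type islands lost on chromosome 3 and 58.3% on chromosome 13. Zfp703, a zinc finger gene on near-median chromosome 8, lost 16 of 16, where 45.0% of all distal wild-type islands of the chromosome were lost. Those 16 islands lay within 0.276 Mb at chr8:26688001-26964000, summed to 37.2 kb, and 14 of them had wild-type ASXL1. No distal Asxl1-/- island was assigned to Zfp703.

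Distal islands were changed more often when the next distal island was changed than when it was kept. An Asxl1-/- island was gained in 40.9% of cases when the next distal island was gained and in 27.1% when the next was kept. A wild-type island was lost in 50.7% of cases when the next was lost and in 34.4% when it was kept. On the near-median autosomes these shares were 37.8% and 24.4% for gains, and 49.9% and 36.0% for losses. There were 115 runs of at least 5 gained and 308 runs of at least 5 lost distal islands in a row. Over all distal islands 31.5% were gained and 41.1% lost, and a higher share alone gives more runs. The number of runs to be expected at these shares was not computed. Of the gained runs, 10 islands in Mgat5 within 0.169 Mb formed one, with no ASXL1. The longest lost run had 23 islands over 2.91 Mb of chromosome 3, around Adgrl2, Adgrl4 and Ptgfr. On that chromosome 65.6% of all distal wild-type islands were lost.

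Lists of genes for the lineages and pathways of stromal cells were then read against the background of 31.5% gained and 41.1% lost. These shares count islands, and islands of 1 gene lie together, so a list can follow a single locus. Counts per gene are given for members with many changed islands, chosen after their values were seen. In the extracellular matrix list 62 of 143 distal Asxl1-/- islands were gained (43.4%) and 49 of 133 distal wild-type islands were lost (36.8%). Fbn1, which codes for the microfibril protein fibrillin-1, gained 10 of 14 islands, and Col14a1 gained 7 of 8. Col4a2 gained 5 of 14 and lost 0 of 9, and the widest gains of the list after Col4a1 were 8.6 kb in Fbn1 and 7.8 kb in Col5a1. Has2, the hyaluronan synthase gene, went the other way, with 7 of 10 lost. On near-median autosomes 45 of 107 were gained and 36 of 98 were lost.

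The contractile and adhesion list had 38 of 102 distal islands gained (37.3%) and 23 of 94 lost (24.5%). The integrin gene Itga11 gained 5 of 9 and lost 0 of 4. Mrtfa, a co-activator of serum response factor, gained an island of 6.8 kb, but it gained 3 of 14 islands in all and lost 5 of 16. Palld, which codes for the actin-binding protein palladin, had 10 of 15 lost. On near-median autosomes the list had 11 of 36 gained and 12 of 41 lost.

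In the YAP and TEAD list, the effectors of the Hippo pathway, 6 of 58 distal islands were gained (10.3%) and 33 of 83 were lost (39.8%), and this lost share is close to the background. Its 4 widest lost islands had ASXL1: 9.6 kb in Tead4, 7.4 kb in Yap1, 4.4 kb in Wwtr1 and 4 kb next to Amotl1. Wwtr1, on chromosome 3, lost 11 of 14. ASXL1 lay over 67.6% of all lost distal islands above 5 kb and 48.5% of those of 3200 to 5000 bp. For kept distal wild-type islands of these widths the shares were 83.9% and 61.5%. On near-median autosomes 3 of 27 were gained and 14 of 39 lost. Hedgehog and Notch genes lost 45 of 85 (52.9%) and gained 12 of 57 (21.1%). Rbpj, the DNA-binding factor of Notch signalling, lost 8 of 17, and Notch2, on chromosome 3, 6 of 8. Gli2, a hedgehog transcription factor gene, gained 4 of 7 and lost 8 of 10, and the ligand gene Jag1 gained 1 of 1 and lost 6 of 6.

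Intervals of the lineage lists overlapped, and their order was not the same on the near-median autosomes. Of the adipocyte list 24 of 53 were gained (45.3%) and 18 of 50 lost (36.0%). Gains met 11 of 14 at Ebf1, on chromosome 11, and 6 of 12 at Ebf2, on chromosome 14, both early factors of fat cell commitment. Of all distal Asxl1-/- islands, 34.6% were gained on chromosome 11 and 43.3% on chromosome 14. Klf4, on near-median chromosome 4, lost 8 of 14. Of all distal wild-type islands of that chromosome 50.3% were lost, with 60.8% up to 120 Mb and 28.0% beyond it. The chondrocyte list had 6 of 32 gained (18.8%) and 31 of 57 lost (54.4%). Trps1, a GATA-type repressor gene with a role in cartilage, lost 13 of 15 islands, the widest of 8 kb with ASXL1, and Sox5, a partner of Sox9, lost 8 of 17. In the osteoblast list 14 of 50 were gained (28.0%) and 19 of 50 lost (38%). Runx2, the master factor of bone, gained 6 of 18 and lost 6 of 16. On near-median autosomes, where the background was 28.1% gained and 41.8% lost, the adipocyte list had 7 of 26 gained and 15 of 36 lost. The chondrocyte list had 6 of 19 gained and 11 of 25 lost there, and the osteoblast list 10 of 41 and 13 of 35.

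The list of niche factors, genes that support haematopoiesis, lay near the background, with 16 of 52 gained (30.8%, 18.7 to 45.1) and 29 of 63 lost (46.0%, 33.4 to 59.1). Cxcl12, the chemokine that holds haematopoietic stem cells in the niche, gained 5 of 13 and lost 5 of 13, with a lost island of 3.4 kb outside the gene. Csf1, the macrophage growth factor gene, lost an island of 4 kb with ASXL1, and Angpt1 lost 5 of 5 and gained 2 of 2. Growth factor genes had 13 of 65 gained (20.0%) and 45 of 96 lost (46.9%), with Pdgfc, on chromosome 3, at 7 of 7 lost and Met, the hepatocyte growth factor receptor, at 8 of 11. On chromosome 3 65.6% of all distal wild-type islands were lost. The Wnt list, at 32.5% gained and 41.3% lost, and the TGF-beta and BMP list, at 27.8% and 41.8%, stayed near the background. Within them Fzd1, a Wnt receptor gene, lost 6 of 9, Ror2 gained 6 of 12, and Ltbp1, which codes for a latent TGF-beta binding protein, lost 9 of 13.

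Hox genes had few distal islands, of which 8 of 22 were gained and 1 of 12 was lost. Their widest gains, at Hoxb9 (15.8 kb), Hoxc4 (4.4 kb), Hoxc12 (3.8 kb) and Hoxb3 (3.4 kb), all had wild-type H3K27me3 and Asxl1-/- H3K4me3. The cell cycle list had 11 of 66 gained (16.7%) and 27 of 78 lost (34.6%), and on near-median autosomes 8 of 34 gained and 20 of 43 lost, so its lost share was below the background in all and above it there. Cdkn2b, a CDK inhibitor gene on chromosome 4, lost 11 of 15 and gained 0 of 4. Those 11 are among the 20 lost on near-median autosomes, of which chromosome 4 is one. Of all distal wild-type islands on chromosome 4, 50.3% were lost, with 60.8% up to 120 Mb and 28.0% beyond it. The list thus follows the Cdkn2b locus in part. Myc lost 7 of 34 and gained 2 of 30. In the other lists 8 of 25 and 7 of 26 islands of chromatin regulators were gained and lost, and 6 of 22 and 8 of 24 of AP-1 genes. Counts for genes of other kinds were 8 of 30 gained and 9 of 30 lost for leukocyte and erythroid genes, 13 of 35 and 15 of 37 for endothelial genes, 3 of 8 and 4 of 9 for neural genes, and 3 of 17 and 3 of 18 for housekeeping genes. The stromal and pericyte list had 20 of 62 gained and 30 of 68 lost.

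The labelled cell type was checked at the ends of marker genes. H3K4me2 lay within 1000 bp of an end of 10 of 10 mesenchymal stromal markers in Asxl1-/- cells and 9 of 10 in wild-type cells, Lepr being the one unmarked in wild type. It lay at 2 of 6 leukocyte markers in each genotype (Cd79a and Spi1), with Ptprc, Itgam and Cd3e among those unmarked. Both erythroid markers, Klf1 and Epor, were marked in each genotype, and 2 of 5 endothelial markers in Asxl1-/- cells and 3 of 5 in wild-type cells. These lists show where a mark was called and not how many cells carry it. At Asxl1 an island lay over the start in both genotypes, of 10 kb in Asxl1-/- cells and 10.8 kb in wild-type cells, and a gained distal island of 1.6 kb lay in the gene body. It checks no label, since the deleted part is not given.

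Annotated starts were rarer in changed than in kept distal islands, but changed islands were also narrower. The median width was 1800 bp in gained and in lost islands. It was 2600 bp in kept distal Asxl1-/- islands and 2800 bp in kept distal wild-type ones. The part of width in the start shares was not tested. A RefSeq start of any coding or long noncoding transcript lay in 3.80% of gained distal islands and 10.8% of kept distal Asxl1-/- islands, and in 2.82% of lost and 11.1% of kept distal wild-type islands, chromosome 18 left aside. The protein-coding starts among them were poor in CpG, with a median observed-over-expected CpG ratio of 0.309 in gained islands (62 starts) and 0.620 in kept distal Asxl1-/- islands (721 starts). The ratio was 0.333 in lost islands (47 starts) and 0.612 in kept distal wild-type islands (719 starts). The Fat1 start shown above had a ratio of 0.147 and the Mad1l1 start 0.141, while the Igf2 start (0.896) and the Pax6 start (0.998) lay in islands with H3K27me3 in both genotypes. The letters TGANTCA, the core to which AP-1 binds and a palindrome, so that both strands were read at once, were in 13.4% of 232 starts in gained islands and 9.62% of 1570 starts in kept distal Asxl1-/- islands. They were in 17.3% of 260 starts in lost islands, 10.2% of 1576 starts in kept distal wild-type islands and 7.84% of all 31396 starts. Long noncoding starts held these letters in 9.25% of all cases, against 7.06% for protein-coding ones. They made up 213 of the 260 starts in lost islands and 857 of the 1576 in kept ones. Among long noncoding starts the letters were in 16.4% (11.7 to 22.1) in lost and 12.1% (10.0 to 14.5) in kept distal wild-type islands. Among protein-coding starts they were in 10 of 47 (21.3%, 10.7 to 35.7) in lost and 7.79% (5.94 to 10.0) in kept ones. The part of start type in these shares was not tested.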

How the data were processed

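Chromatin immunoprecipitation sequencing gave 1 library per target and genotype. Per the submitters' processing notes, the authors used BWA, SICER 1.1 and the build mm10. Not given in the sources used here were the settings of the peak caller and its control. Deposited lists hold, per the file headers and values, chromosome, first base and last base of each island on a 200 bp grid, with no count, score or p-value, and 1 list was made for each library. Starts and ends were turned to 1-based positions. The input library was not analysed here. Gene ends came from 20665 autosomal protein-coding genes of a RefSeq table (GRCm38.p6), which gives no exons. The start table used here holds no chromosome 18.

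Islands were compared as intervals with Python 3.11.15, numpy 2.4.6, pandas 2.3.3 and scipy 1.17.1, and counts of shared islands were equal in bedtools 2.31.1. With 200 of 35291 wild-type islands removed from a copy of the list, 200 were found lost; this outcome was fixed and checks the code alone. Standardised shares weight kept or near islands to the width classes (and chromosomes) of the other set. Pairs are islands that overlap 1 island each way. No test between genotypes was made.

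The members and the 20 gene lists (456 of 469 entries found on autosomes) were chosen with earlier results of these data known. Named are the 10 widest gained and the 10 widest lost distal islands, the 6 genes with most of each, the 6 most narrowed and the 6 most widened pairs of at least 4 kb summed width, the 4 widest changed genes of each list and the 4 widest lost islands of each context, passing over genes named by a clone or a prediction. A few genes are not reported here by name, and the counts include them.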

Additional observations from a re-analysis of the deposited data

How the results depend on the processing

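The alternatives asked for at least 50% of the island to be covered, for the ends of all annotated genes, for a distance over 10 kb, for islands of at least 1000 bp, for lists of equal length by width, and for the near-median autosomes. In all 6 the lost share stayed higher in distal than in near islands (4.12 times, range 2.75 to 4.46), lost distal stayed above gained distal (1.31 times, 1.11 to 1.49), and ASXL1 and H3K4me3 were more frequent in kept than in lost distal islands (1.69 times, 1.47 to 1.80, and 4.54 times, 3.07 to 5.20).

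With 50% covered, the gained distal share was 36.2%, the lost distal share 47.4% and the lost near share 13.7%, with ASXL1 in 32.0% of lost and 46.9% of kept islands and H3K4me3 in 11.4% of lost ones. With all gene ends, these were 32.8%, 43.1% and 15.6%, with ASXL1 in 46.6% of kept islands and H3K4me3 in 7.04% of lost and 31.2% of kept ones. Beyond 10 kb, they were 32.2%, 42.1% and 14.3%. With islands of at least 1000 bp, ASXL1 was in 30.3% of lost and 50.01% of kept islands and H3K4me3 in 9.10% and 36.2%. With lists of equal length, the gained distal share was 35.0%, the lost distal share 38.8% and the lost near share 8.70%, the median width ratio was 0.944, ASXL1 was in 31.1% of lost and 49.9% of kept islands, and H3K4me3 was in 36.3% of kept ones. On the near-median autosomes the gained distal share was 28.1%, the lost near share 10.8% and the median width ratio 0.933, with ASXL1 in 49.9% of kept islands and H3K4me3 in 7.02% of lost and 36.5% of kept ones. The cause of these shifts was not tested.

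No paired analysis was possible because each group is 1 library. No library was left out for the same reason. Depth is unknown, and a weaker library cannot be told apart from fewer or narrower islands. The lists hold no statistic of the peak caller, and width stood in its place for a stricter threshold.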
